A study of Mus musculus with 768 samples.

Results

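The cells described here are muscle stem cells (satellite cells) of the mouse that stood at both ends of one scale, the number of genes with at least 1 read in the cell. Every cell was first thinned to 100000 reads, so that all cells were compared at the same number of reads, and the cells of each mouse were then ordered by that number and split into 3 groups of about equal size. The group with the most genes detected (gene-rich) was set against the group with the fewest (gene-poor). Of the 377 cells with RNA counts, 246 were members, 123 in each of these 2 groups, and the remaining 131 formed the intermediate group. Each group held 20 cells in mouse Y4, 14 in Y5, 24 in Y7, 25 in Y8, 18 in O1 and 22 in O5. The members were thus chosen by their own RNA counts, and the number of genes detected is a description of the selection and not a result.

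The mice carried a nuclear GFP reporter driven by Pax7, and the cells were the brightest GFP-positive cells of the tibialis anterior muscle, sorted as single cells into plates after enzymatic digestion and storage of the cell suspension in liquid nitrogen. Y4, Y5, Y7 and Y8 were young (2 months) and O1 and O5 were old (24 months). RNA was read by Smart-seq2, a full-length protocol in which each well gives 1 library and PCR copies cannot be told apart from separate molecules. Because GFP was the basis of the sort, cells with a weak reporter were not sampled, and digestion and freezing preceded the measurement of every cell.

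Satellite cells rest beneath the basal lamina of the muscle fibre in quiescence, a reversible arrest in which the cells are small and hold little RNA and cytoplasm. Pax7, a paired-box transcription factor, marks them. They hold the fibre through cadherins and the lamina, which contains laminin and type IV collagen, through integrins and dystroglycan. When muscle is dissociated, immediate early genes such as Fos and Egr1 are induced within the time of the digestion. In a single-cell protocol the number of genes detected depends on how much mRNA a cell held and on how much of it was captured, and these cannot be told apart in the present counts.

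At 100000 reads the median cell of the gene-poor group held 1232 to 1882 genes, lowest in O1 and highest in Y7. The median cell of the gene-rich group held 1793 to 2703 genes, with the same mice at both ends. Averaged over mice, the medians were 1497 ± 225 genes in the gene-poor, 1842 ± 297 in the intermediate and 2260 ± 355 in the gene-rich group (SD, n = 6 mice). The thresholds cut a continuous distribution. In Y4 the last cell of the gene-poor group held 1621 genes and the first of the intermediate group 1622, and in O1 the cells on either side of that limit both held 1365. At the upper limit the 2 cells were 1931 and 1934 genes in Y4 and 1854 and 1871 in O5. The gene-rich group of O1 overlapped in gene number with the gene-poor group of Y7, so the groups are relative to each mouse.

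**Figure D1:**
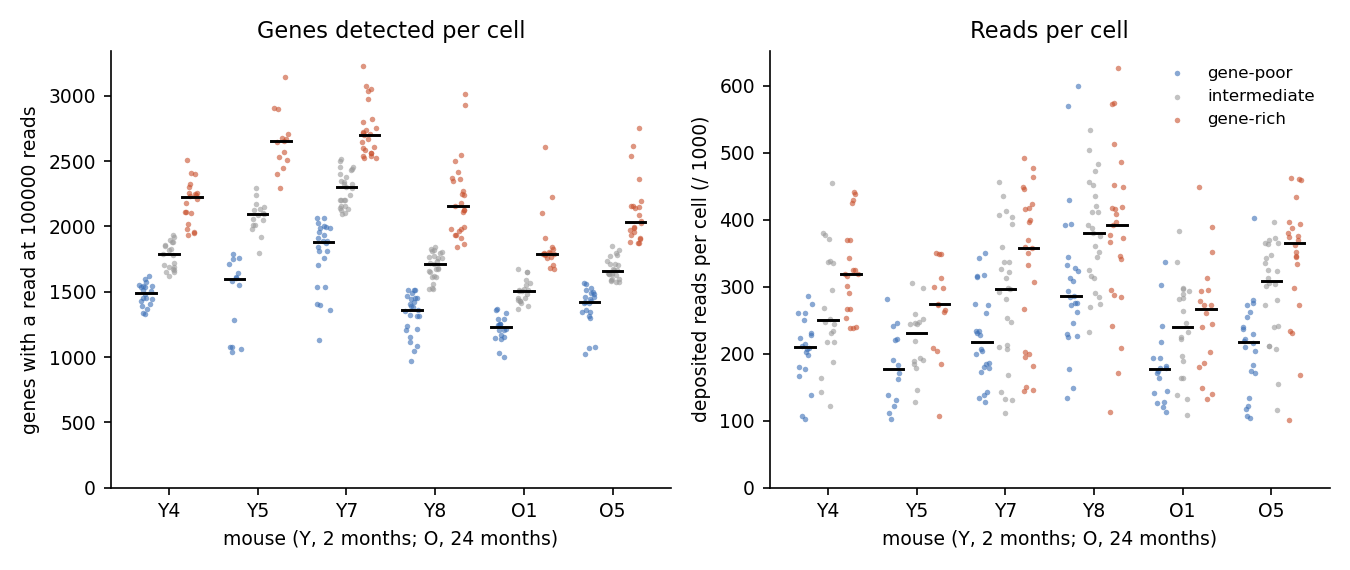
Genes with a read at 100000 reads (left axis, number of genes) and deposited reads divided by 1000 (right panel) for each cell, by mouse and group; each point is a cell and each bar the median of its group. The groups are separate on the left because they were chosen by that number, and on the right the medians of the gene-rich group lie above those of the gene-poor group in 6 of 6 mice, with wide overlap between cells.

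The extra genes were of low and intermediate level. Between the gene-poor and the gene-rich group the median number of genes with a single read went from 108 to 186, of genes with 2 to 9 reads from 336 to 584 and of genes with 10 to 99 reads from 742 to 1263, whereas genes with 100 or more reads went from 286 to 219 (means over mice). The 100 most abundant genes of a cell took 40.8% ± 5.5 of its reads in the gene-poor and 34.4% ± 4.8 in the gene-rich group, and the 10 most abundant took 11.98% ± 1.51 and 10.33% ± 0.93 (SD, n = 6 mice). These values follow from the same counts as the ranking and were not tested.

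Reads per cell as deposited were not used in the ranking. They were 214385 ± 40049 in the gene-poor and 329278 ± 51510 in the gene-rich group (mean of the mouse medians ± SD, n = 6 mice), higher in the gene-rich group of 6 of 6 mice (exact two-sided paired permutation test, p = 0.031, the smallest that 6 mice allow). Cells with many genes at equal depth had therefore also received more reads. Each mouse was sequenced on 1 lane, so every comparison of groups was made within a lane.

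Because every gene adds to the number of genes detected, a gene compared between the groups would be partly compared with itself. Each gene was therefore compared in groups of cells ranked without its own set of chromosomes. Genes on odd-numbered autosomes were compared between cells ranked by the genes of the even-numbered autosomes, X and Y, and the reverse. These groups shared 92.7% to 95.9% of their cells with the groups ranked by all genes, and no cell changed from one end to the other. All levels, fold changes and shares of cells below come from these held-out groups.

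The number of genes detected carried over from one set of chromosomes to the other. On odd-numbered autosomes, the median cell showed 819 ± 119 genes in the gene-poor, 1004 ± 157 in the intermediate and 1226 ± 182 in the gene-rich group as ranked by the other chromosomes (SD, n = 6 mice). On the other chromosomes, the values were 669 ± 107, 834 ± 136 and 1026 ± 162. The gene-rich group was higher in 6 of 6 mice for both sets.

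Most of the gain came from genes found in a minority of cells. The 8036 genes seen in up to 10% of intermediate cells supplied 22.4% of the additional genes per cell, the 3296 genes seen in 10 to 25% supplied 36.8%, and the 1449 genes seen in 25 to 50% supplied 27.98%. The 147 genes seen in over 90% of intermediate cells added 0.80%, since 93.05% of gene-poor and 97.6% of gene-rich cells already showed the average gene of this class. In the gene-rich group 187 genes were found in over 90% of cells, against 111 in the gene-poor group, and 12117 genes were found in more cells of the gene-rich group while 2761 were found in fewer.

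The gain differed between functional groups, and of the functional lists ribosomal proteins had the smallest and proteasome subunits the largest ratio. Over all genes, a gene-rich cell showed 2290 ± 332 genes against 1451 ± 196 in a gene-poor cell, a ratio of 1.58 (1.46 to 1.80 in single mice). For the 84 ribosomal protein genes, which every cell needs to make ribosomes, the ratio was 1.05, with 73.8 ± 2.8 genes per gene-poor cell and 77.5 ± 1.5 per gene-rich cell. For the 48 genes of the proteasome, the complex that degrades tagged proteins, it was 1.95, with 8.8 ± 1.6 against 17.1 ± 2.6 genes. Vesicle transport genes gave 1.81, from 21.8 ± 5.1 to 39.5 ± 7.5 of 188 genes, and nuclear-encoded genes of oxidative phosphorylation 1.59, from 25.0 ± 3.8 to 39.8 ± 5.7 of 86 genes.

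Cell cycle genes, few of which were detected, gave 1.83, from 2.17 ± 0.45 to 3.97 ± 0.83 of 33 genes. The lists that follow lay below the ratio of all genes. Genes of splicing stood at 1.46, of chromatin regulation at 1.49, of extracellular matrix and adhesion at 1.47, of translation factors at 1.42 and of heat shock and protein folding at 1.37. Genes of muscle stem cell identity and quiescence gave 1.25, from 16.7 ± 1.4 to 20.8 ± 2.6 of 48 genes. Immediate early and isolation response genes gave 1.13, from 24.4 ± 1.3 to 27.6 ± 2.4 of 48 genes (SD, n = 6 mice for each). The groups differ in level, and abundant genes have little room to be found in more cells, so these ratios are a description with no test.

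**Figure D2:**
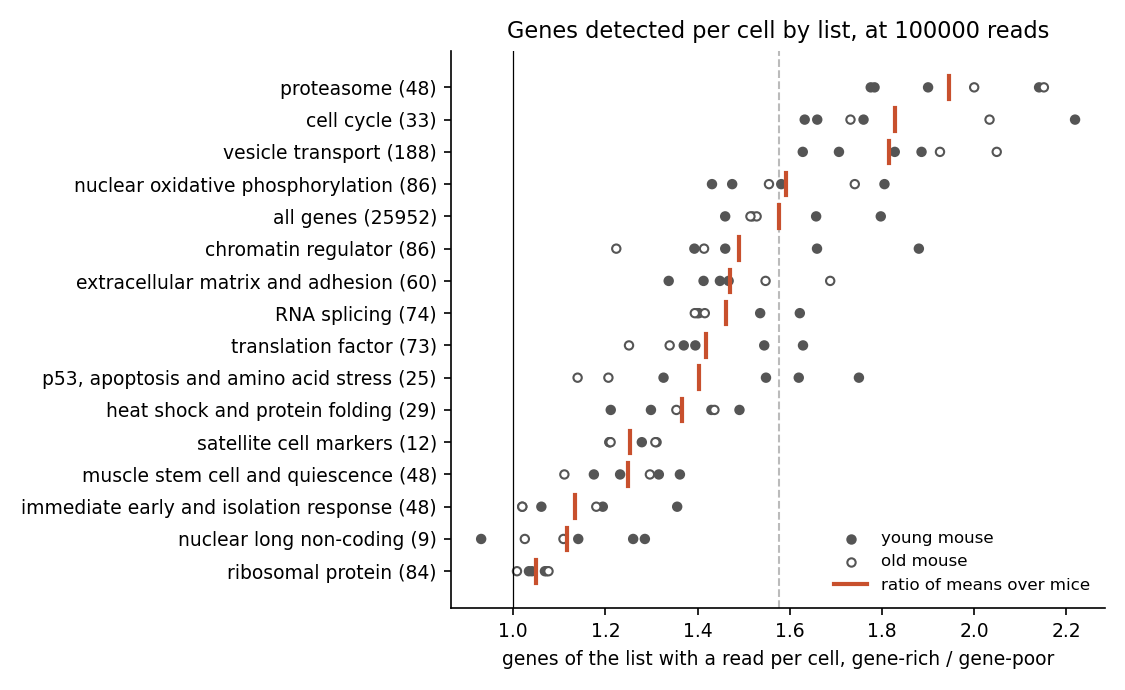
Ratio of the number of genes of each list with a read per cell, gene-rich group over gene-poor group, at 100000 reads in the held-out groups; the number of genes in each list is in brackets, points are mice (filled young, open old), red bars are the ratio of the means and the dashed line is the ratio over all genes. Ribosomal protein genes stay near 1 (1.05) and proteasome genes reach 1.95, with all genes at 1.58.

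The share of reads that a gene took was compared with edgeR's quasi-likelihood test on 1 sum of counts per mouse and group, paired by mouse. Levels are counts scaled to 1000000 reads of the cells summed (CPM), a share of reads and not an amount per cell. Of 8605 genes tested, none passed an adjusted p of 0.05 in either direction (0% higher and 0% lower), and the smallest adjusted p was 0.151. At an unadjusted p under 0.05, 298 genes (3.46%) were higher and 68 (0.79%) lower in the gene-rich group. DESeq2 on the same sums called 451 genes higher (5.24%) and 64 lower (0.744%), so the calls rest on the tool. The sums varied widely between mice: the median standard error of a log2 fold change among genes of at least 50 CPM was 0.81. For that reason the genes below are described by their values, and none is called changed.

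Genes of low level took more of the reads in the gene-rich group and genes of high level less. The median log2 fold change was 0.51 over all genes tested, with 68.3% of genes higher, and 0.47 with 66.9% higher under TMM normalization. The filter on low counts could admit a gene through the sums of a single group, and such genes were not set apart. Among genes of at least 50 CPM, a mean over both groups, the median was 0.24, with 2460 higher and 1442 lower. By level among these genes, the median was 0.48 at 50 to 100 CPM, 0.19 at 100 to 200 CPM and 0.09 at 200 to 500 CPM. It was -0.05 at 500 to 1000 CPM and -0.11 at 1000 to 5000 CPM. Without the ribosomal protein genes the last 2 values were -0.02 and -0.08. By quartile of exon length the medians were 0.18, 0.32, 0.26 and 0.21 from the shortest to the longest genes, a smaller span than by level. Of 3910 genes of at least 50 CPM, 125 (3.2%) were higher in the gene-rich group of all 6 mice and 56 (1.43%) lower. Random signs would agree in all 6 mice with a probability of 0.031, equally often up and down. The share of lower genes was not above what random signs give.

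**Figure D3:**
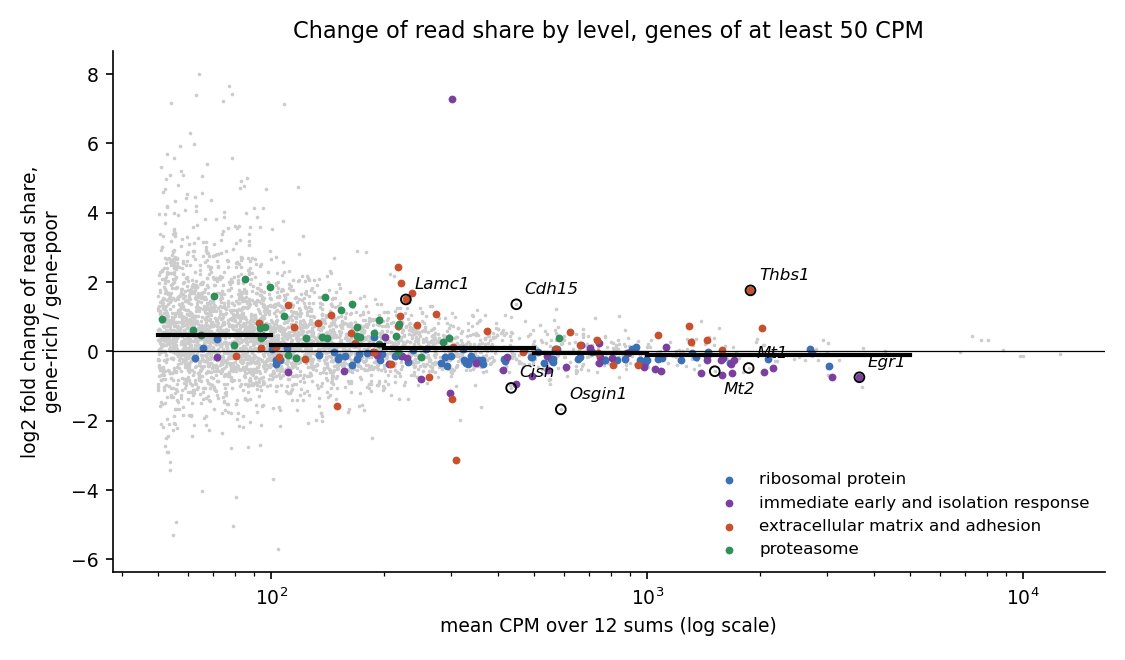
Log2 fold change of read share, gene-rich group over gene-poor group (vertical axis), against mean CPM (horizontal log axis) for genes of at least 50 CPM; black bars are medians of all genes by level, colours mark 4 gene lists and circles the labelled genes. The black bars go from 0.48 at 50 to 100 CPM to -0.11 at 1000 to 5000 CPM, and no gene passed the test; the coloured point above 7 is Ctgf, with a log2 fold change of 7.28.

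Among genes of at least 50 CPM higher in every mouse, the smallest p-values were those of Cdh15 and Lamc1. Cdh15, which encodes M-cadherin, the cadherin that joins satellite cells to the fibre, starts at 122848374 on chromosome 8 (GRCm38). In the gene-poor group Cdh15 had 74.1 CPM in the lowest, 271 in the median and 540 in the highest mouse, and in the gene-rich group 430.5, 568 and 823 CPM. The ranges overlapped only through Y4, whose gene-poor group stood at 540 CPM, and Cdh15 was higher in the gene-rich group of 6 of 6 mice (log2 fold change 1.36 ± 0.34 SE, edgeR adjusted p = 0.995). Cdh15 was also found in more cells, 29.8% ± 12.01 of gene-poor and 71.9% ± 12.6 of gene-rich cells, and in the cells that had it the median count was 79 reads in the gene-poor and 80.5 in the gene-rich group. The intermediate group stood at 62.4% of cells.

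Lamc1, the laminin gamma 1 chain of basement membranes (chromosome 1, 153218922 to 153332786), had 41.2, 96.7 and 298 CPM in the lowest, median and highest mouse of the gene-poor group. In the gene-rich group the values were 169, 293 and 587 CPM, higher in 6 of 6 mice (log2 fold change 1.499 ± 0.41 SE, edgeR adjusted p = 0.995). Lamc1 had a read in 24.2% ± 14.8 of gene-poor and 63.5% ± 16.2 of gene-rich cells. Mouse Y5 gave the largest difference.

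The 2 chains of the main type IV collagen network, encoded head to head by Col4a1 and Col4a2 on chromosome 8, were higher in 5 of 6 mice each. Col4a1 stood at 134 ± 120 CPM in the gene-poor and 340 ± 208 in the gene-rich group, and Col4a2 at 139 ± 82 and 301 ± 252 CPM (SD, n = 6 mice). Cells with a Col4a1 read made up 41.6% ± 20.7 of the gene-poor and 77.01% ± 21.7 of the gene-rich group. Dag1, the dystroglycan that links laminin to the cytoskeleton, stood at 990 ± 431 and 1588 ± 570 CPM, higher in 5 of 6 mice. Itgb1, the integrin beta 1 subunit, was found in 48.4% ± 20.2 of gene-poor and 85.9% ± 15.8 of gene-rich cells, with 317 ± 188 and 432 ± 187 CPM.

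Thbs1, which encodes the secreted glycoprotein thrombospondin 1, was higher in 6 of 6 mice, but its level differed widely between the mice of the gene-poor group. It had 2.64 CPM in O1, a median of 715 and 5047 CPM in O5, against 318, 1990 and 6369 CPM as lowest, median and highest in the gene-rich group. Sparc, a collagen-binding matrix protein, was higher in 5 of 6 mice, with 1481 ± 906 and 2556 ± 1633 CPM, and O1 went the other way. Bgn, the proteoglycan biglycan, went from 31.1% ± 11.2 to 64.1% ± 8.6 of cells and from 502 ± 273 to 744 ± 340 CPM. Cd82, a tetraspanin of the satellite cell surface, had nearly the same level at both ends (1605 ± 748 and 1560 ± 540 CPM).

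Mmp2, a secreted protease that degrades basement membrane collagen, went against this group. It had 87.2, 396 and 1228 CPM as lowest, median and highest in the gene-poor group and 0, 118 and 307 CPM in the gene-rich group, lower in 6 of 6 mice. In Y4 and Y5 no gene-rich cell had an Mmp2 read, which allows a share of up to 15.0% of 20 and 21.4% of 14 cells. Its fitted fold change depends on those empty sums and is not given. Of the 60 matrix and adhesion genes 48 were tested, 32 with a positive and 16 with a negative log2 fold change, and the positive share of 66.7% was near the 68.3% of all genes. The median was 0.30 beside 0.51 for all genes, and 0.34 beside 0.24 among genes of at least 50 CPM. An unadjusted p under 0.05 was reached by 7 of the 48 upward and 1 downward, where all genes gave 3.46% and 0.79%. Lamc3 and Col5a3, further genes of laminin and fibrillar collagen, stood at 162 ± 129 and 256 ± 408 CPM and at 128 ± 94 and 138 ± 81 CPM.

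The remaining genes with the smallest p-values among those higher in all 6 mice came from metabolism, redox control, signalling and protein handling. Eno1, the glycolytic enzyme enolase 1 (chromosome 4, 150236721 to 150248879), was among 5 genes of at least 50 CPM that were higher with no overlap of the ranges. It had 59.8, 127 and 204 CPM as lowest, median and highest in the gene-poor group and 237, 267 and 462 CPM in the gene-rich group, a log2 fold change of 1.24 ± 0.38 SE. Its reads were found in 26.3% ± 10.6 and 67.3% ± 11.2 of cells. The other 4 higher genes without overlap, picked out by that property, were Pwp1, Suclg1, Tmem14c and Zfp326, all with means under 75 CPM. The 1 gene whose ranges lay apart the other way was the predicted gene Gm5148, with 129.8 to 194 CPM in the gene-poor and 93.5 to 127 CPM in the gene-rich group.

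Glrx3, a glutaredoxin of iron-sulfur handling, went from 118 ± 76 to 264 ± 73 CPM, and Ppp1ca, a catalytic subunit of protein phosphatase 1, from 255 ± 95 to 462 ± 122 CPM. Atg3, the conjugating enzyme that lipidates LC3 in autophagy, was sparse in the gene-poor group, with 1.02, 10.6 and 78.2 CPM as lowest, median and highest. In the gene-rich group its values were 73.1, 138 and 199 CPM, and 38.02% ± 12.5 of cells had a read against 11.3% ± 5.2. Hspa4, a chaperone of the Hsp110 family, stood at 90.4 ± 66.3 and 206 ± 12 CPM and had almost the same level in every gene-rich group.

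Cald1, the actin-binding protein caldesmon, was found in 38.8% ± 13.1 of gene-poor and 78.3% ± 8.8 of gene-rich cells, with 153 ± 75 and 301 ± 71 CPM. Akap13, an anchoring protein of protein kinase A, went from 128 ± 62 to 332 ± 192 CPM, Clcn5, a chloride-proton exchanger of endosomes, from 73.7 ± 42.8 to 249 ± 172 CPM, Pam, an enzyme of peptide amidation, from 182 ± 95 to 334 ± 60 CPM, and Polr2m, a factor bound to RNA polymerase II, from 132 ± 80 to 298 ± 216 CPM. For Ppp1ca, Eno1, Glrx3, Cald1 and Polr2m the median read count in cells with a read was lower in the gene-rich group, for example 42 reads against 26.5 for Eno1, while the share of such cells was higher in 6 of 6 mice. For the other 7 of these 12 genes it was higher, from 10 to 31 reads for Clcn5, 4 to 30.5 for Atg3, 14.5 to 24.5 for Hspa4, 28 to 42 for Pam, 30 to 40 for Lamc1, 20 to 24.5 for Akap13 and 79 to 80.5 for Cdh15.

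Atp5b, the beta subunit of the mitochondrial ATP synthase, was the most abundant nuclear gene of oxidative phosphorylation, at 1236 ± 574 and 1863 ± 458 CPM and higher in 5 of 6 mice. Of 77 genes of oxidative phosphorylation tested, 57 had a positive and 20 a negative log2 fold change, with a median of 0.23. Proteasome genes gave a median of 0.57 with 38 of 44 positive, and together they took 0.487% ± 0.122 of reads in the gene-poor and 0.615% ± 0.117 in the gene-rich group, more in 6 of 6 mice. Psma3, a 20S core subunit, stood at 509 ± 197 and 657 ± 235 CPM, higher in 4 of 6 mice. Vesicle transport genes gave a median of 0.69 with 104 of 139 positive (74.8%), and splicing genes 0.40 with 60 of 70 (85.7%). All genes tested had a median of 0.51 with 68.3% positive, so the medians of oxidative phosphorylation and splicing genes lay below it. Among genes of at least 50 CPM the median was 0.24 for all genes. There it was 0.22 for oxidative phosphorylation, 0.46 for proteasome, 0.39 for vesicle transport and 0.30 for splicing genes. Of the 3 most abundant genes of each of these lists, Cox4i1, Atp5a1, Psmb4, Hnrnpa2b1, Srsf5, Arf1 and Arf4 differed between the groups by less than the standard error of the log2 fold change. Rbm39, a splicing factor, was at -0.30 ± 0.23 SE and Sec61a1, a subunit of the translocon of the endoplasmic reticulum, at 0.48 ± 0.23 SE.

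The 12 genes named as lower in every mouse were Osgin1, Cish, Mt2, Mt1, Gja1, Rps4x, Sertad1, Eef2, Ier3, Fth1, Plekhb1 and Gab1, in order of p. Osgin1, an oxidative stress-induced growth inhibitor (chromosome 8, 119434124 to 119446256), had the smallest p of all genes. It had 528, 697 and 1646 CPM as lowest, median and highest in the gene-poor group and 131, 247 and 542 CPM in the gene-rich group. It was lower in the gene-rich group of 6 of 6 mice, by 1.46 to 2.00 on the log2 scale, although the ranges over mice touched, since the gene-rich group of O5 at 542 CPM stood above the gene-poor groups of Y4 and Y8 (log2 fold change -1.67 ± 0.21 SE, edgeR adjusted p = 0.151). limma on the log2 CPM of the sums, run over the genes of at least 50 CPM and chosen after seeing the data, called Osgin1 and no other gene. The intermediate group had 117 CPM in O1, a median of 686 and 2069 CPM in O5, so that its median lay near that of the gene-poor group while its spread reached past both ends. Cells with an Osgin1 read made up 37.7% ± 8.6 and 38.7% ± 18.8, more in 3 and fewer in 3 of 6 mice, and the median count in those cells was 173 reads in the gene-poor and 31 in the gene-rich group. These were 46 and 45 cells, and the 3 cells with the most Osgin1 reads held 31.7% and 35.8% of them.

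Mt1 and Mt2, the metallothioneins that bind zinc and copper, lie next to each other on chromosome 8 and were both lower in 6 of 6 mice. Mt1 had 796, 2191 and 3525 CPM as lowest, median and highest in the gene-poor group and 652, 1524 and 2459 CPM in the gene-rich group (log2 fold change -0.48 ± 0.13 SE, edgeR adjusted p = 0.995). Mt2 had 663, 1744 and 3190 CPM against 491, 1101 and 1973 CPM (-0.57 ± 0.15 SE, edgeR adjusted p = 0.995). Mt1 had a read in 94.5% ± 7.9 and 97.6% ± 2.7 of cells and Mt2 in 97.7% ± 3.9 and 98.3% ± 4.1. Fth1, the ferritin heavy chain that stores iron, stood at 3380 ± 434 and 2660 ± 401 CPM, lower in 6 of 6 mice, and had a read in 100% of cells of both groups.

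The promoters of Mt1, Mt2 and Osgin1 are shown as examples. These genes were lower in every mouse while the mean share of cells with a read did not fall. The same held for Cish, Rps4x, Eef2, Fth1 and Plekhb1, whose promoters are not shown. Each sequence runs 5′ to 3′ from 250 bases before to 50 bases after the gene's start in RefSeq (GRCm38.p6, plus strand). The Osgin1 window lies inside the gene as the annotation used for gene ends places it, so the 2 annotations put its start at different positions. Capitals in Mt1 and Mt2 mark the core of the metal response element, written TGCACNC or TGCGCNC and searched on both strands, and those in Osgin1 mark the AP-1 site TGANTCA.
Mt1, chr8:94178839-94179138: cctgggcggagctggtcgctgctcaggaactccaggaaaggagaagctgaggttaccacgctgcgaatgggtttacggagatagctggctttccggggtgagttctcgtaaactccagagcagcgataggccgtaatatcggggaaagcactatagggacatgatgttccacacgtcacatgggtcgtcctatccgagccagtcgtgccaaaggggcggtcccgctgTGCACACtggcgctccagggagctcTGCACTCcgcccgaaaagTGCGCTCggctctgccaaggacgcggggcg
Mt2, chr8:94172368-94172667: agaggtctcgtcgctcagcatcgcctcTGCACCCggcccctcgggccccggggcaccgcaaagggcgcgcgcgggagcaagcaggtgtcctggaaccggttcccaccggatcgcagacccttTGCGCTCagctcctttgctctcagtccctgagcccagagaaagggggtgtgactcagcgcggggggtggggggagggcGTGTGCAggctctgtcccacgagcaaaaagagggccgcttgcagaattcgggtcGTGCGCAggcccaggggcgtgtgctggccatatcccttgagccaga
Osgin1, chr8:119436897-119437196: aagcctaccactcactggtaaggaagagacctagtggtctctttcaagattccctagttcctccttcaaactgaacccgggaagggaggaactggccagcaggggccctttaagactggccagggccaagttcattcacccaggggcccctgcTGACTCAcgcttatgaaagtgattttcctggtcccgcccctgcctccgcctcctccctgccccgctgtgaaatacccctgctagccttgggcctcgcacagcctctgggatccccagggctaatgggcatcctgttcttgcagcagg
The metal response core was at 3 places in the Mt1 and 4 in the Mt2 window, and 25.7% of 32817 promoters of this length held at least 1, and 0.518% held 4 or more. An AP-1 site was in 7.81% of promoters, and the antioxidant core TGACNNNGC, in 12.4%, had no match in the Osgin1 window. The Mt2 window also held 1 AP-1 site and 1 antioxidant core, which share bases and are left in lower case, and the Mt1 window held neither. A match describes letters in a window and not binding.

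Immediate early genes and genes of the isolation response took less of the reads in the gene-rich group as a group, with wide spread between mice. Of 48 genes tested 40 had a negative and 8 a positive log2 fold change, with a median of -0.36 beside 0.51 for all genes. Among the 44 of at least 50 CPM the median was -0.34 beside 0.24. These comparisons were not matched by level, and all genes had medians of -0.05 at 500 to 1000 CPM and -0.11 at 1000 to 5000 CPM. An unadjusted p under 0.05 was reached by 7 downward and 1 upward, where all genes gave 0.79% and 3.46%. Together they took 4.44% ± 0.85 of reads in the gene-poor, 3.74% ± 0.53 in the intermediate and 3.47% ± 0.93 in the gene-rich group (SD, n = 6 mice), less in the gene-rich group of 5 of 6 mice. The exception was O1, whose genes of the list of at least 50 CPM had a median difference of 0.26 on the log2 scale.

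Egr1, a zinc finger transcription factor, had 2575, 3694 and 7169 CPM as lowest, median and highest in the gene-poor group and 617, 2379 and 8506 CPM in the gene-rich group. It was lower in 5 of 6 mice and highest of all in the gene-rich group of O1 (log2 fold change -0.75 ± 0.38 SE). Fos, a subunit of AP-1, was lower in only 3 of 6 mice, at 3843 ± 1999 and 2341 ± 1273 CPM. Fosb, of the same family, was lower in 5 of 6 mice, at 2476 ± 1135 and 1844 ± 938 CPM. Egr1 had a read in 73.8% ± 10.9 of gene-poor and 68.97% ± 8.0 of gene-rich cells, so the share of cells with a transcript moved little.

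Ier3, an early response gene of survival signalling, had 149, 439 and 661 CPM as lowest, median and highest in the gene-poor and 68.8, 156 and 323 CPM in the gene-rich group. Sertad1, a coactivator of E2F transcription, went from 595 ± 280 to 301 ± 116 CPM, and Cish, a feedback inhibitor of cytokine signalling, from 598 ± 649 to 271 ± 313 CPM, each lower in 6 of 6 mice. The median count in cells with a read went from 79 to 35 for Ier3, from 84 to 45.5 for Sertad1 and from 192 to 79 for Cish, while 36.1% and 35.04%, 58.8% and 53.9%, and 21.04% and 23.1% of cells had a read. For Cish these were 25 and 27 cells, so its level rests on few cells. The 3 cells with the most Cish reads held 49.4% of them in the gene-poor and 39.6% in the gene-rich group. Brd2, a reader of acetylated histones, stood at 785 ± 349 and 507 ± 286 CPM, lower in 6 of 6 mice.

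Gja1, the gap junction protein connexin 43, had 90.03, 212 and 349 CPM as lowest, median and highest in the gene-poor group and 23.7, 54.4 and 96.8 CPM in the gene-rich group, an overlap between the gene-poor group of O5 and the gene-rich group of Y8. Gab1, an adaptor of receptor tyrosine kinases, went from 200 ± 79 to 63.7 ± 61.1 CPM and Plekhb1, a membrane protein, from 262 ± 180 to 138 ± 110 CPM. All 3 were found in 17% to 27% of cells of either group, so their levels rest on few cells: the 3 cells with the most Plekhb1 reads held 45.6% of its reads in the gene-poor and 47.9% in the gene-rich group.

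Of 81 ribosomal protein genes tested 66 had a negative and 15 a positive log2 fold change, with a median of -0.20, and together they took 5.16% ± 1.09 of reads in the gene-poor and 4.52% ± 0.69 in the gene-rich group, less in 5 of 6 mice and more in Y5. All genes had a median of 0.51, but of -0.05 at 500 to 1000 CPM and -0.11 at 1000 to 5000 CPM. The ribosomal protein genes were not matched by level. Rps4x, a protein of the small subunit, had 2391, 3531 and 4160 CPM as lowest, median and highest in the gene-poor and 1596, 2718 and 3089 CPM in the gene-rich group, lower in 6 of 6 mice (log2 fold change -0.41 ± 0.12 SE, edgeR adjusted p = 0.995). Rpl4 and Rplp0, the next most abundant and both of the large subunit, were higher in 3 and lower in 3 of 6 mice.

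Eef2, the elongation factor that moves the ribosome along the mRNA, stood at 3463 ± 780 and 2541 ± 882 CPM and was lower in 6 of 6 mice. Eef1a1, which delivers the transfer RNA, stood at 10241 ± 3197 and 9345 ± 2628 CPM, and Tpt1, a translationally controlled protein, at 1685 ± 519 and 1440 ± 430 CPM. Translation factors as a list had a median of 0.32 and 43 of 65 positive (66.2%), near the 68.3% of all genes tested, and their summed share was lower in 4 of 6 mice.

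**Figure D4:**
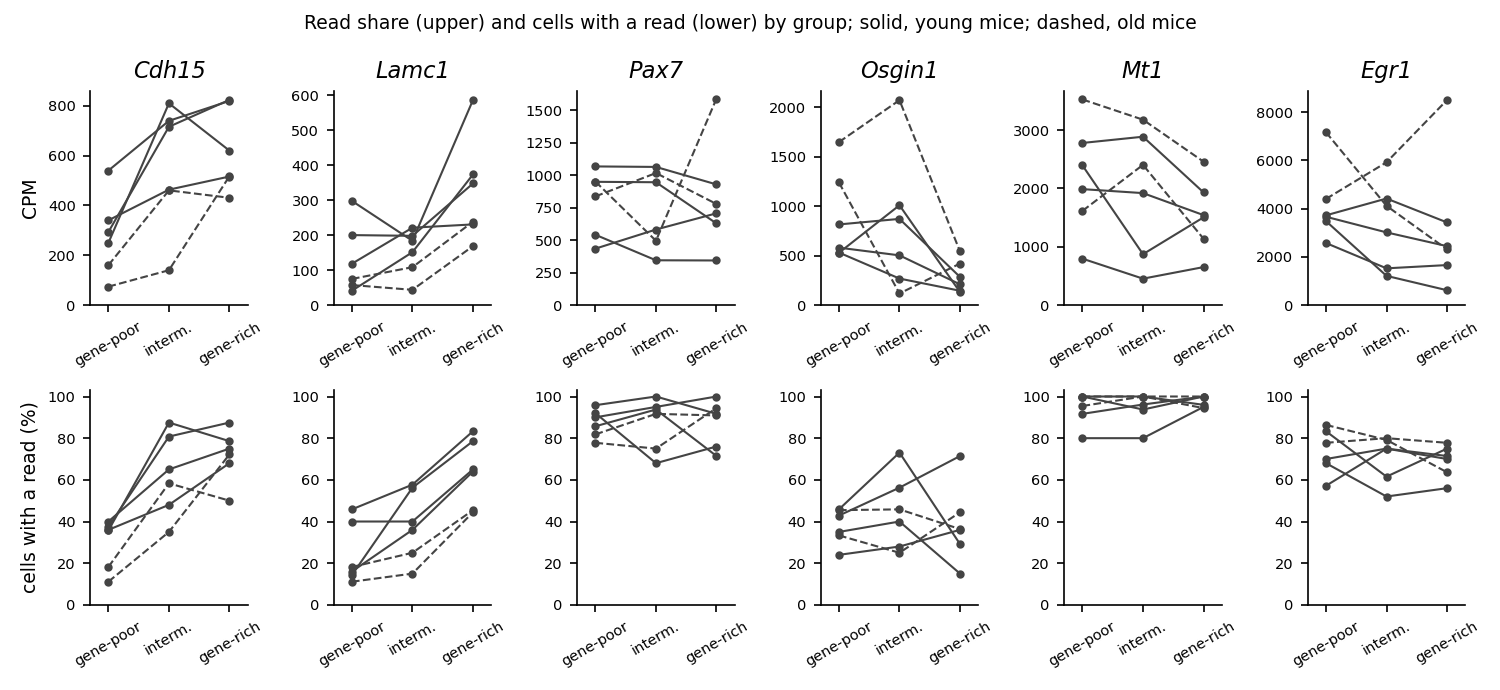
CPM (upper row) and percent of cells with a read at 100000 reads (lower row) by group for 6 genes; each line is a mouse, solid young and dashed old. Cdh15 and Lamc1 are higher in the gene-rich group of 6 of 6 mice on both scales, Osgin1 and Mt1 are lower in CPM in 6 of 6 mice, Pax7 averages about 87% of cells in each group with spread between mice, and Egr1 is lower in 5 of 6 mice.

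Pax7, which defined the sort, was detected to a like extent in all groups. It had a read in 87.2% ± 6.7 of gene-poor, 87.2% of intermediate and 87.4% ± 11.2 of gene-rich cells. Its level was 435, 893 and 1068 CPM as lowest, median and highest in the gene-poor group and 344, 743 and 1590 CPM in the gene-rich group, with a log2 fold change of -0.02 ± 0.25 SE. Myf5, a myogenic regulator transcribed in most quiescent satellite cells, was found in 68.98% ± 8.3 and 71.6% ± 19.1 of cells, and Myod1, the regulator of activation, in 38.2% ± 10.3 and 55.7% ± 10.7 at a level of 956 ± 708 and 786 ± 325 CPM. The log2 fold changes of Pax7 and Myod1 carry standard errors of 0.25, so differences of that order were not detectable.

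Sdc4, the proteoglycan syndecan 4 of the satellite cell surface, was found in 100% of cells of both groups. Des, the muscle intermediate filament, and Vcam1, an adhesion receptor of satellite cells, stood at 1608 ± 319 and 1768 ± 439 CPM and at 1375 ± 713 and 1552 ± 439 CPM. Of the 12 satellite cell markers, all of them tested, 6 had a positive and 6 a negative log2 fold change, with a median of -0.01. In the gene-rich group 11 were found in more cells, where over all genes 12117 were found in more and 2761 in fewer. Cdh15 alone among the 12 markers had an unadjusted p under 0.05. The markers of the sorted cell type were present in cells of both groups.

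Genes tied to quiescence and cell cycle control varied between mice more than between groups. Spry1, an inhibitor of growth factor signalling, stood at 258 ± 135 and 138 ± 95 CPM, lower in 4 of 6 mice. Btg1, an antiproliferative factor, stood at 1960 ± 1472 and 1447 ± 514 CPM, Gas1, a surface protein of growth arrest, at 598 ± 467 and 599 ± 378 CPM, and Cdkn1b, an inhibitor of cyclin-dependent kinases, at 29.003 ± 15.7 and 34.9 ± 28.4 CPM. Gpx3, a secreted glutathione peroxidase and the most abundant gene of the quiescence list, took 12936 ± 2605 and 12050 ± 1358 CPM, and Peg3, an imprinted transcription factor, 3103 ± 1236 and 2923 ± 825 CPM.

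The cell cycle genes with reads were mainly those outside division. Ccni, Cdk4 and Ccnd3 stood at 307 ± 230 and 369 ± 177, at 162 ± 100 and 304 ± 242, and at 250 ± 195 and 190 ± 187 CPM. Ccnd1, the cyclin of entry into the cycle, was found in 19.3% ± 17.4 of gene-poor and 42.6% ± 22.7 of gene-rich cells, with no read in the gene-poor group of either old mouse. Genes of mitosis were near absent at both ends. Ccnb1 had a read in 0 of 123 cells of each group, which allows a share of up to 2.44%, Cdk1 in 0 and 1, Top2a in 0 and 2 and Mki67 in 1 and 1 cells. The count limits cover counting error only.

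Most heat shock genes had a positive log2 fold change, as did 68.3% of all genes tested. The abundant long non-coding RNAs of the nucleus had a negative one. Hspa8, Hsp90ab1 and Hsp90aa1, the main cytosolic chaperones, stood at 4305 ± 1326 and 4279 ± 1205, at 3695 ± 1558 and 3796 ± 982 and at 2734 ± 830 and 3313 ± 1374 CPM. In the heat shock list 22 of 29 genes had a positive log2 fold change (75.9%), with a median of 0.34 beside 0.51 for all genes. Among genes of at least 50 CPM the medians were 0.34 and 0.24. Malat1, a nuclear RNA found in 99.3% of gene-poor and 100% of gene-rich cells, stood at 10554 ± 4153 and 9378 ± 2986 CPM. The 4 such RNAs of at least 50 CPM were all negative, of 7 tested, though Gas5 stood at only -0.007. The list took 1.54% ± 0.57 of reads in the gene-poor and 1.27% ± 0.35 in the gene-rich group, less in 5 of 6 mice. Neat1, the RNA of paraspeckles, stood at 3753 ± 2200 and 2379 ± 897 CPM, lower in 5 of 6 mice. Genes of p53, apoptosis and amino acid stress gave a median of 0.19 over 18 genes, and Atf4, their most abundant member, stood at 1286 ± 492 and 1271 ± 195 CPM but was found in 77.8% ± 13.1 and 95.7% ± 3.9 of cells. Chromatin regulators gave a median of 0.09 over 69 genes, and together they took 0.715% ± 0.093 of reads in the gene-poor and 0.617% ± 0.101 in the gene-rich group, less in 6 of 6 mice.

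Genes that mark endothelial cells, immune cells, muscle fibres and tenocytes were scarce at both ends, while some genes listed for fibro-adipogenic and mural cells were widespread. The 12 endothelial genes took 0.00574% of reads in the gene-poor and 0.00176% in the gene-rich group (0 to 0.0223% and 0 to 0.00408% in single mice), the 17 immune genes 0.00188% and 0.00315%, and the 14 muscle fibre genes 0.00576% and 0.00707%. Muscle fibre genes were found more often in the gene-rich group of 6 of 6 mice, as were all genes together. They gave 0.150 ± 0.112 and 0.383 ± 0.115 genes per cell, a ratio of 2.55 beside 1.58 for all genes. Actn3, an actinin of fast fibres, had a read in 7.7% ± 5.7 and 25.99% ± 9.0 of cells. The average gene seen in up to 10% of intermediate cells went from 2.84% to 5.16% of cells. The globin genes Hba-a1 and Hba-a2 of red blood cells had no read in any group. Fibro-adipogenic genes took 0.204% ± 0.088 and 0.228% ± 0.063, almost all of it from Gsn and Dpt, while Col1a1, a defining collagen of those cells, stood at 9.5 ± 10.5 and 15.3 ± 32.4 CPM. Among mural genes, Notch3 stood at 543 ± 279 and 454 ± 230 CPM and had a read in 64.5% ± 18.6 and 73.5% ± 24.7 of cells. Acta2 stood at 99.3 ± 51.1 and 188 ± 129 CPM and Tagln at 38.5 ± 68.3 and 87.5 ± 55.997 CPM, each higher in 5 of 6 mice. Acta2 was found in 13.6% ± 10.0 and 34.3% ± 11.6 of cells. Glial genes took 0.0544% and 0.0486%, mostly from Pmp22, and tenocyte genes 0.000603% and 0.00137%. The part of such cells in the differences above was not tested.

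The same contrast was set out for young and old mice. The median cell of the gene-rich group held 2159 to 2703 genes in the young and 1793 and 2032 in the old mice, and that of the gene-poor group 1357 to 1882 and 1232 and 1425. In a test of the interaction of group and age, edgeR called none of 8605 genes (0%), with 351 at an unadjusted p under 0.05, and DESeq2 called 316. Among the 5 genes of at least 50 CPM with the smallest p, Ccnd1, Wdr1, Tceal8 and Ppic had an empty gene-poor group in an old mouse, and their fitted values are not given. Rac1, a small GTPase of actin remodelling, had an interaction of 3.58 on the log2 scale (old minus young; SE 0.68, edgeR adjusted p = 0.827). In the gene-poor groups of the old mice, Rac1 had a read in only 16.7% of 18 cells (O1) and 27.3% of 22 cells (O5). Both old mice were on the same lane as Y7, and the other young mice on another, so age and lane could be separated only through Y7.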

How the data were processed

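The deposited table gives whole-number read counts per gene and cell, made by the authors from Smart-seq2 libraries aligned with HISAT2 to GRCm38 as its column names show. Annotation release and strand setting are not given in the sources used here, so overlapping and antisense genes, and ribosomal proteins with near-identical pseudogenes, are uncertain. The table holds 25952 genes and 377 of 768 labelled cells, those that passed the study's quality filter, with 101755 to 626142 reads each (median 272816), and no mitochondrial genes. No 2 cells had identical counts.

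Each cell was thinned to 100000 reads without replacement (numpy, seed 7), and cells were ranked within mice by genes with at least 1 read and split into 3 groups. Genes on odd-numbered autosomes (13535) and all others (12417) were each tested in cells ranked by the other set. Deposited counts were summed per mouse and group and tested with edgeR 4.0.16 (quasi-likelihood, library totals as offset, mouse as block, filterByExpr, Benjamini-Hochberg over both sets, threshold 0.05), and fold changes are gene-rich over gene-poor. The mouse is the replicate, and groups are paired because they come from the same mouse. The scripts were tested on simulated data. Alternatives used DESeq2 1.42.0, limma 3.58.1 (pseudocount 1 CPM), TMM, no filter, no block, other rankings and each mouse left out. The young mice alone, the limit of 50 CPM and limma on the sums were added after seeing the data. The named genes were, of those with at least 50 CPM and a difference of the same sign in every mouse, the 12 higher and 12 lower with the smallest p, the 3 most abundant of each list, genes the study names, and the 5 with the smallest p for the interaction with age. Exon lengths came from GENCODE M21 and were known for 93.4% of genes of at least 50 CPM. The members, gene lists and tests were chosen with earlier results of these data known. Intervals and limits on counts cover counting error only.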

Additional observations from a re-analysis of the deposited data

Results flagged for a closer look

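In 11 of 117 sets of 6 mouse differences, each the log2 CPM of the gene-rich minus that of the gene-poor group, 1 mouse stood far from the other five by Dixon's criterion, where chance marks about 1 set in 20. O1 stood apart for Thbs1 (6.46), Acta2 (5.90), Gas1 (3.06) and Ccni (2.63), in each of which its gene-poor group had the lowest level of all mice. Y5 stood apart for Lamc1 (3.15), Sdc4 (0.72) and the median of the muscle stem cell and quiescence genes (0.23). O5 stood apart for Bgn (2.67) and the median of the cell cycle genes (2.00), Y8 for Tek (-2.93) and Y7 for Psmb4 (-0.48). Lamc1 was higher in the gene-rich group of 6 of 6 mice and kept a log2 fold change of 1.19 or more whichever mouse was left out. The cause of these differences was not tested.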

How the results depend on the processing

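The count of genes passing the threshold depended on the tool. edgeR called 0 genes in either direction with the mice paired and 0 with no replicate block, under TMM, without a filter, on thinned counts, under every other ranking, with 4 groups in place of 3, in the young mice alone, in genes of at least 50 CPM and with each mouse left out (0 to 0). DESeq2 called 451 higher and 64 lower, and 316 for the interaction with age, where edgeR called 0 under its alternatives. limma on the mean log2 CPM of single cells called 1761 higher and 5 lower. That mean counts cells without a read as 0 and so follows detection, and the 5, named after seeing them, were Zfp36, Cln3, Grasp, Junb and Mmp2. limma on the summed CPM called 1 lower gene, Osgin1. The single-cell mean reversed Arf4 (1.33), Arf1 (1.31), Peg3 (1.17), Pmp22 (1.46) and Lamc3 (1.41), all negative and not called in edgeR on the sums. In all 26 named genes changed sign under it, among them Cish (0.0014), Mt1 (0.01), Eef2 (0.26) and Brd2 (0.35), lower in 6 of 6 mice on the sums, and Neat1 (0.59) and Btg1 (0.21). Under the other alternatives the 100 named genes tested changed sign 150 times, 149 of them where the fold change was smaller than its standard error, and 4 under TMM. The other case was Rac1, at -0.20 in the young mice alone. Of the medians of functional lists and satellite cell markers, those of chromatin regulators, nuclear long non-coding RNAs, quiescence genes and satellite cell markers changed sign, 16 times in all, with values from -0.03 to 0.13. Medians of the endothelial, immune, glial and muscle fibre lists, which rest on 1 or 2 tested genes each, also changed sign. The immune list went from 0.69 to as low as -0.98 with a mouse left out. The endothelial gene went from 0.22 to -0.89 in the young mice alone. The difference in deposited reads per cell kept its direction when cells were ranked without thinning. Sums of 14 to 25 cells limit the precision of each share.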
